A study of Mus musculus with 4 samples.

Results

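The genes described are those of antigen receptor rearrangement and of the pre-B-cell receptor. They comprise Rag1 and Rag2, which encode the recombinase, Dntt, which encodes terminal transferase, and the surrogate light-chain genes Vpreb1, Vpreb2, Vpreb3 and Igll1. The members were chosen by name, with earlier results of these data known. Of the 7 listed genes, 5 had a row among the 16591 genes of the count table. Dntt and Vpreb2 had no row and were not analysed here. Read counts came from RNA of 2 Eμ-Myc cell lines of strain C57BL/6, JQ1S, which is sensitive to JQ1, and JQ1R, which is resistant, with 2 libraries per line. Eμ-Myc cells are mouse B-lymphoma cells in which an immunoglobulin heavy-chain enhancer drives Myc in the B lineage, and JQ1 blocks the bromodomains of BET proteins, readers of acetylated histones. The labels describe early-passage cells of both lines in culture medium and name no drug added before harvest. Each group is a single line, so resistance and other differences between JQ1S and JQ1R cannot be told apart, and the p-values cover just the variation among these libraries, which could be technical. The comparison asks which of these genes differ in RNA level between the lines.

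RAG1 and RAG2 together cut DNA at the recombination signal sequences that flank V, D and J segments. RAG1 carries the DNA-binding and catalytic parts, and RAG2 has a domain that binds a histone mark of active chromatin. Terminal transferase adds untemplated nucleotides to the joins. In large pre-B cells a rearranged μ heavy chain pairs with the surrogate light chain, made of VpreB (Vpreb1 or Vpreb2) and λ5 (Igll1), to form the pre-B-cell receptor. The surrogate light chain is then shut off while the recombinase acts on the light-chain loci, and VpreB3, which binds μ chains inside the cell, is made over a wider span of B-cell development.

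The 250 bases before the RefSeq start of 4 members are shown because they precede the annotated start of the gene that fell (Rag1), of its partner in the same locus (Rag2), of the most abundant member (Vpreb3) and of a member close to the detection limit (Igll1). All 7 listed genes matched the RefSeq promoter table of GRCm38.p6. The RefSeq start lies 31 bases upstream of the GENCODE gene start for Rag1 and 6 bases upstream for Rag2, and both starts coincide for Igll1. B230118H07Rik, another gene on the minus strand, has its GENCODE start at the same base as the RefSeq start of Rag1. The Rag1 window thus precedes both genes. For Vpreb3 the RefSeq start lies 5243 bases downstream of the GENCODE gene start, so its window falls inside the GENCODE gene span. Which start these lines use was not tested. Sequences run 5′ to 3′ on the strand of the gene, and capitals mark matches on either strand to the E-box CANNTG, the box CCAAT, the RUNX motif TGTGGT, the Ikaros motif TGGGAA, the EBF motif CCCNNGGG and the FOXO motif TGTTTAC.
Rag1, chr2:101649533-101649782, minus strand: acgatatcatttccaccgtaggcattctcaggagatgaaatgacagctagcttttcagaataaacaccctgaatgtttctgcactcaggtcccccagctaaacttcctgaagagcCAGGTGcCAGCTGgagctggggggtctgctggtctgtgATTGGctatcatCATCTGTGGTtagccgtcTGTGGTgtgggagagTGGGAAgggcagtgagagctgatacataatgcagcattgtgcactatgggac
Rag2, chr2:101624462-101624711, plus strand: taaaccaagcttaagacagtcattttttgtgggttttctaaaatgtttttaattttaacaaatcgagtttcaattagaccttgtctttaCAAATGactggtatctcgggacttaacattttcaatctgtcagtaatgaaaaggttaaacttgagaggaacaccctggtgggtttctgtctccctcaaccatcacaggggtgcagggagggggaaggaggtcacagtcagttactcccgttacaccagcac
Vpreb3, chr10:75948050-75948299, plus strand: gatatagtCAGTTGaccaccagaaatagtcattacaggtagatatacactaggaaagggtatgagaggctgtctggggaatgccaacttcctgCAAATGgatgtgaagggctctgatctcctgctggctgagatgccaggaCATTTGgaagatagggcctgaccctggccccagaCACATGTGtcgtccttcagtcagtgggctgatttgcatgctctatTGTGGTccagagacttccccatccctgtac
Igll1, chr16:16863986-16864235, minus strand: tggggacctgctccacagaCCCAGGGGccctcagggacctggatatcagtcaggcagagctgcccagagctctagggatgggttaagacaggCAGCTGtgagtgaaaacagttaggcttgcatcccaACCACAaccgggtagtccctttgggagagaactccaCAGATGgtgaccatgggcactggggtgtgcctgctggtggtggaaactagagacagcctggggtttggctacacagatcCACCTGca
The Rag1 window held 3 E-boxes, 1 CCAAT box, 2 TGTGGT motifs and 1 Ikaros motif, and the E-box that begins 85 bases before the start overlapped the TGTGGT that begins 81 bases before it. The Rag2 window held 1 E-box and no other of the 6 motifs. The Vpreb3 window held 5 E-boxes, of which those at 75 and 73 bases before the start overlap, and 1 TGTGGT. The Igll1 window held 3 E-boxes, 1 EBF motif and 1 TGTGGT, the last on the other strand. Among 32817 promoter windows of this length, 66.2% held an E-box, 33.8% CCAAT, 14.0% TGTGGT, 21.6% the Ikaros motif, 11.8% the EBF motif and 3.16% the FOXO motif. These matches describe the letters of the windows only.

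The members spanned more than 3 orders of magnitude, from Vpreb3, among the most abundant transcripts of both lines, to Igll1, with single counts. Per kilobase of exon (CPM is a count per 1000000 counts of its library, with TMM factors, here divided by the exon length), Vpreb3 stood at 248 ± 14.4 in sensitive and 290 ± 2.69 in resistant cells (mean ± SD, n = 2), above 98.5% to 98.7% of the 16393 genes with a known length. Rag1 stood at 17.7 ± 0.254 and 8.29 ± 0.172 CPM per kilobase, and Rag2 at 8.03 ± 0.849 and 6.17 ± 0.00336. Vpreb1 was at 0.372 ± 0.162 and 0.437 ± 0.0776 CPM per kilobase and Igll1 at 0.0403 ± 0.00657 and 0.0829 ± 0.0622. The order Vpreb3, Rag1, Rag2, Vpreb1, Igll1 was the same in every library, and no neighbours in that order overlapped within a line, although Vpreb1 and Igll1 rest on so few counts that their counting intervals are wide.

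**Figure D1:**
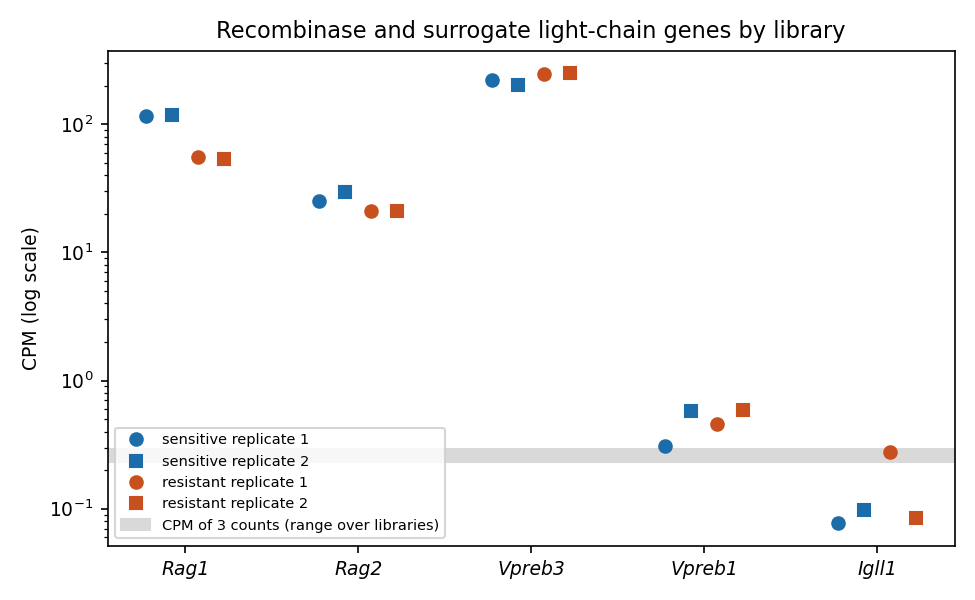
CPM of the 5 members with a row in the table, on a log axis, for each of the 4 libraries (blue, sensitive; orange, resistant; circles and squares, replicates 1 and 2; grey band, the CPM of 3 counts). Rag1 is lower in both resistant libraries, Vpreb3 stands above 200 CPM in all 4 libraries, and Vpreb1 (4 to 7 counts) and Igll1 (1 to 3 counts) lie near the band.

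Rag1 fell in resistant cells. The sensitive libraries held 1500 and 1214 counts (116 and 118 CPM), the resistant ones 607 and 641 counts (55.6 and 54.0 CPM). Both resistant libraries lay below both sensitive ones, with little spread within either line. The mean fell from 117 ± 1.68 to 54.8 ± 1.13 CPM (SD, n = 2), to 46.9% of the sensitive level, a log2 change of -1.09 ± 0.07 (SE; 95% interval -1.23 to -0.95) with an adjusted p of 1.63e-08 (edgeR quasi-likelihood test, Benjamini-Hochberg over all 11945 tested genes). By p-value Rag1 stood 15th of the 11945 genes. By size of change it stood 175th of them in either direction and 40th of the 182 genes called lower. With any single library left out the log2 change was -1.11 to -1.07. Rag1 (ENSMUSG00000061311) lies on chromosome 2 of GRCm38 at 101638282 to 101649501 on the minus strand.

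Rag2, which lies beside Rag1 on the same chromosome, did not pass the test. The sensitive libraries held 330 and 304 counts of Rag2 (25.4 and 29.5 CPM), the resistant ones 231 and 251 (both 21.1 CPM). The resistant libraries were the lower ones here too, and the sensitive libraries differed more from each other than the resistant ones. The log2 change was -0.37 ± 0.10 (95% interval -0.59 to -0.15), with an adjusted p of 0.0594 in edgeR and 0.443 in DESeq2. Rag2 was called lower with no filter on low counts (adjusted p = 0.0482), with the replicate block (0.0151) and without sensitive replicate 1 (log2 change -0.48, adjusted p = 5.01e-04, where only the resistant pair gives a spread). With sensitive replicate 2 left out its log2 change was -0.27 and the adjusted p 0.108. Rag2 (ENSMUSG00000032864) lies at 101624718 to 101632529 on the plus strand, so that the 2 genes point towards each other.

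Rag1 took a smaller share of the summed Rag1 and Rag2 counts in both resistant libraries than in either sensitive one. It took 82.0% (95% exact Clopper-Pearson interval 80.1 to 83.7) and 80.0% (77.9 to 82.0) of them in the sensitive libraries. In the resistant libraries it took 72.4% (69.3 to 75.4) and 71.9% (68.8 to 74.8), and these counting intervals did not meet those of the sensitive libraries, although they cover counting error within a library and not the spread between libraries. The mean share was 81.0 ± 1.41% and 72.1 ± 0.405% (SD, n = 2), so it fell by 8.82 percentage points, and the exact two-sided permutation test gave p = 0.333, the smallest that 2 libraries against 2 allow. The share rests on the same counts as the changes of Rag1 and Rag2 above and is no separate support for them. Per kilobase, Rag1 exceeded Rag2 by 2.36 and 2.07 times in the sensitive line, against 1.36 and 1.32 times in the resistant line.

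The locus holds another annotated gene, which had low counts and was not called. B230118H07Rik runs through the locus on the minus strand, shares 80 exonic bases with Rag1 (1.21% of the Rag1 exons) and 208 with Rag2 on the opposite strand (6.07%). Reads in the shared bases cannot be assigned with certainty. Rag1 and B230118H07Rik lie on the same strand, and for Rag2 no strand setting for the counting is known here. B230118H07Rik was low in each line, with 1.31 and 1.26 CPM (sensitive) against 1.01 and 1.43 CPM (resistant). Its log2 change was -0.07 ± 0.37 (adjusted p = 0.950 in edgeR) and ran from -0.35 to 0.15 when 1 library was left out. Traf6, a signalling adaptor 28.9 kb from the start of Rag1, was at 98.1, 96.0, 90.4 and 92.3 CPM (log2 change -0.09, adjusted p = 0.515). Neither neighbour had an unadjusted p below 0.05 in edgeR, against 16.9% of all tested genes, and neither was called by DESeq2 or limma-voom.

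Vpreb3 was slightly higher in resistant cells, by a margin that several settings did not call. The sensitive libraries held 2876 and 2101 counts of Vpreb3 (222 and 204 CPM), the resistant ones 2702 and 2977 (247 and 251 CPM). The groups did not overlap, and the sensitive libraries lay further apart than the resistant ones. The log2 change was 0.22 ± 0.06 (95% interval 0.10 to 0.35), with an adjusted p of 0.0456 in edgeR and 0.139 in DESeq2. Its log2 change ran from 0.17 to 0.29 when 1 library was left out. Vpreb3 lost the call when either resistant library was left out, where only the sensitive pair gives a spread. Over all tested genes the counts of that pair differed more than those of the resistant pair. Vpreb3 (ENSMUSG00000000903) lies on chromosome 10 at 75943057 to 75949657, and its exons share no base with another annotated gene. Within 200 kb of it 13 genes were tested, and edgeR, DESeq2 and limma-voom each called 0, while 2 had an edgeR p under 0.05 before adjustment. Of all tested genes edgeR called 3.73%, and 16.9% had such a p, so these counts are no result about the neighbours.

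The components of the surrogate light chain were scarcely detected in either line. Sensitive cells gave 4 and 6 counts of Vpreb1 (0.308 and 0.583 CPM) and resistant cells 5 and 7 (0.458 and 0.589 CPM), and the lines overlapped. Both it and Igll1 were below the filter on low counts. With no filter the log2 change of Vpreb1 was 0.28 ± 0.64 (95% interval -1.04 to 1.60, adjusted p = 0.925 in edgeR). This interval does not exclude a 2-fold change in either direction. Igll1 had 1 count in each sensitive library and 3 and 1 counts in the resistant pair, none above the floor of 3 counts, and no fold is given. The exact 95% counting interval of Igll1 reached at most 0.802 CPM in any library. Vpreb1 and Igll1 lie 6.86 kb apart by their starts on chromosome 16, at 16868403 to 16870843 and 16860671 to 16863985.

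Vpreb1 has a near-identical copy in Vpreb2, which bears on what its counts mean. The longest annotated transcripts of the 2 genes aligned over 686 bases with 97.5% identity, so reads from either may be assigned to neither or to the wrong copy. In addition, 9.01% of the Vpreb1 exons overlap Top3b, a topoisomerase gene on the other strand that stood at 33.1 to 35.6 CPM in the 4 libraries. The part of these overlaps in the 22 counts of Vpreb1 was not tested.

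Of the 3 members that passed the filter, 1 was called lower and 1 higher, beside 3.73% of all 11945 tested genes called in either direction, 1.52% lower and 2.20% higher. Rag1 was called and at least 2-fold lower, as were 0.393% of tested genes. An unadjusted edgeR p below 0.05 was found for each of the 3 members and for 16.9% of tested genes. The lines were separate, with no overlap of libraries, for each of the 3, as they were for 47.3% of tested genes, 23.2% with the resistant libraries lower, as in Rag1 and Rag2. The median log2 change of all tested genes was 0.003, with its middle 50% of genes between -0.09 and 0.12.

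**Figure D2:**
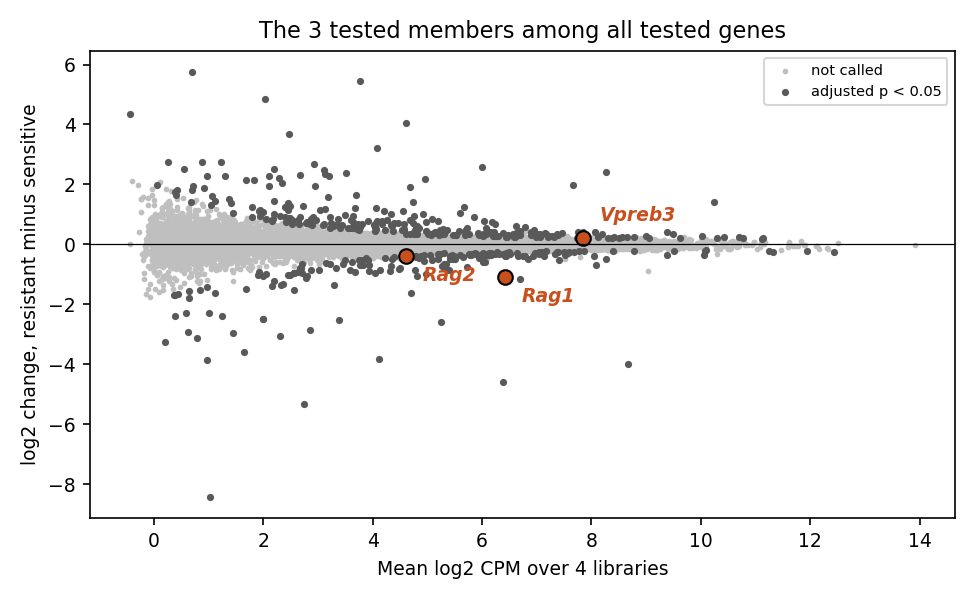
The log2 change (resistant minus sensitive) of the 11945 tested genes against their mean log2 CPM, with called genes in dark grey and the 3 tested members in orange. Rag1 at -1.09 lies outside the cloud of genes of its level, while Rag2 at -0.37 and Vpreb3 at 0.22 lie at its edge.

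**Figure D3:**
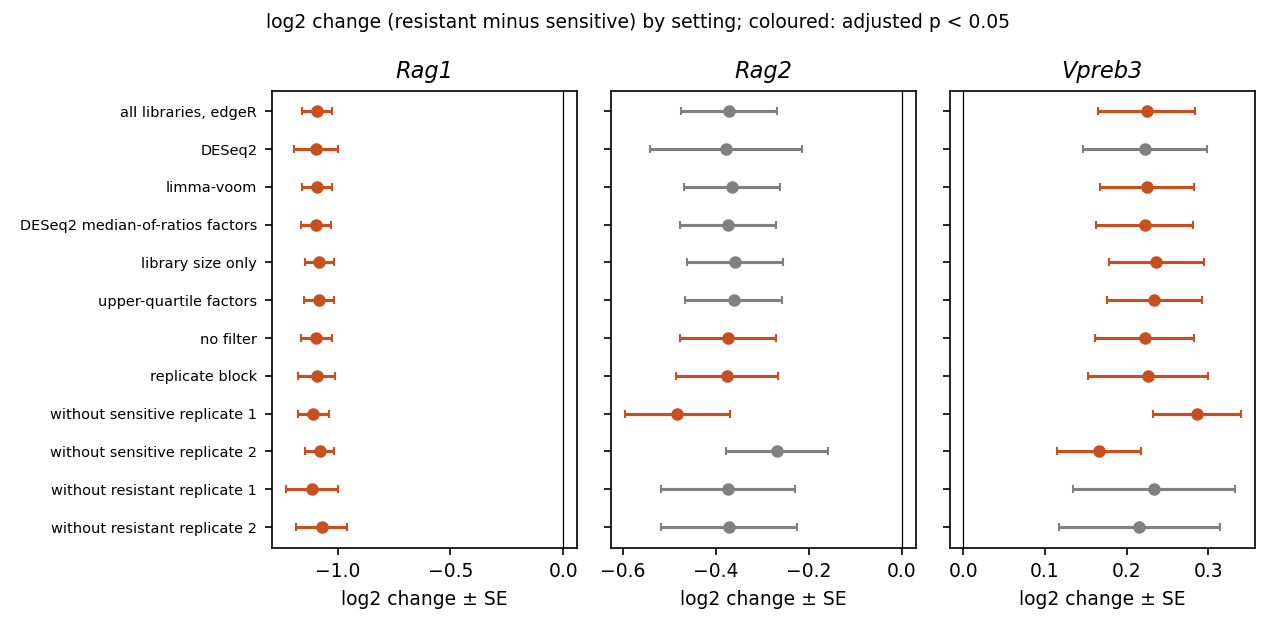
The log2 change of Rag1, Rag2 and Vpreb3 with its SE under the edgeR fit of all libraries and 11 other settings, coloured where the adjusted p was below 0.05. Rag1 is coloured throughout, Rag2 in 3 of the alternatives and Vpreb3 in 8 of them.

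Surrounding genes on chromosome 16 and chromosome 19 were also examined. Of all tested genes edgeR called 3.73%, and 16.9% had an unadjusted p under 0.05, so counts over so few neighbours are descriptive only. Of 4 tested genes within 200 kb of Vpreb1, which include Ppm1f and Top3b, edgeR, DESeq2 and limma-voom each called 0, and edgeR gave 0 an unadjusted p under 0.05. Near Dntt, 4 genes were tested, among them the adaptor gene Blnk, and 0 were called by these 3 tools, and edgeR gave 0 an unadjusted p under 0.05. Near Vpreb2, 1 of 6 tested genes fell, the ubiquitin ligase adaptor Klhl22. Klhl22 went from 8.55 and 8.36 CPM to 2.56 and 3.28 CPM in the resistant line (log2 change -1.52 ± 0.19, adjusted p = 1.15e-04 in edgeR).

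**Figure D4:**
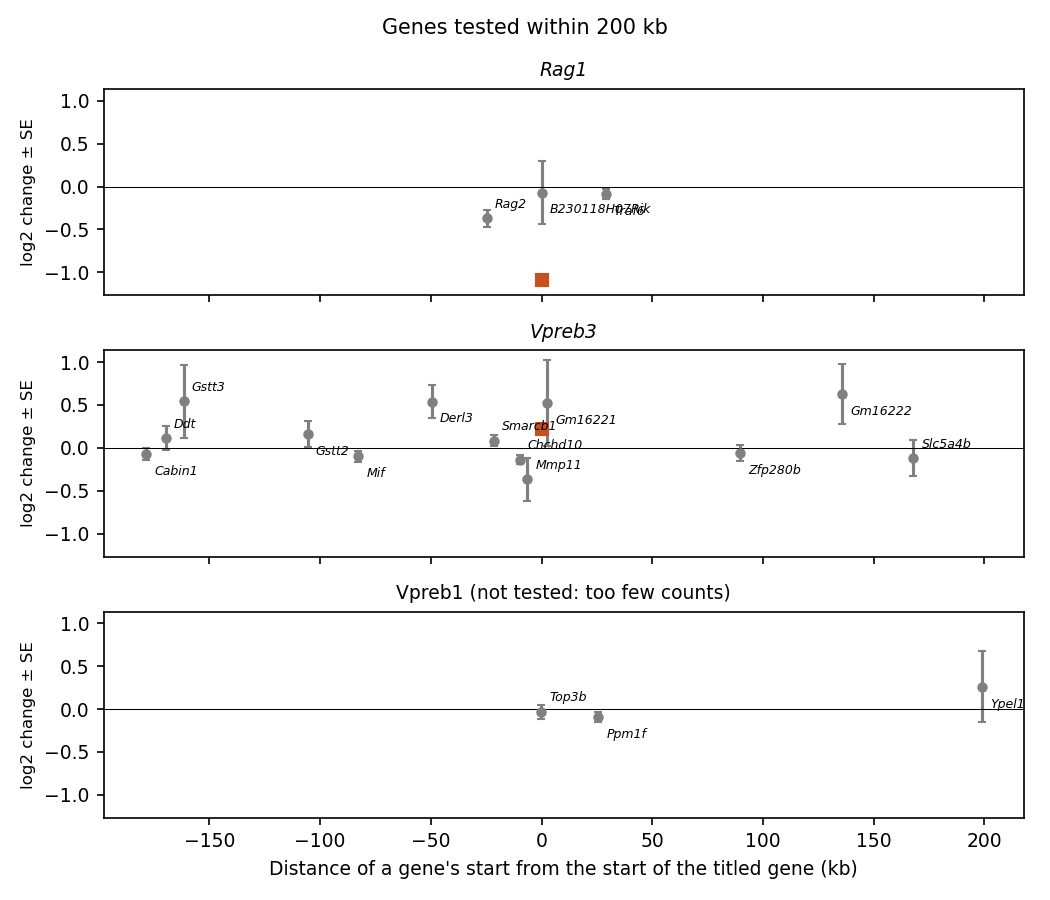
The log2 change with its SE of tested genes within 200 kb of Rag1, Vpreb3 and Vpreb1 (1 near Vpreb1 is not plotted), against the distance of each gene's start from the start of the titled gene (orange square, the titled gene where tested). Rag1 at -1.09 lies below its neighbours Rag2, B230118H07Rik and Traf6, and no grey gene in the panels was called.

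The genes whose CPM followed Rag1 most closely over the 4 libraries were Limk1, Padi2 and Gfra1. Likeness was the distance between log2 CPM values centred on each gene's mean, over 8117 genes whose mean log2 CPM was 3 or more, so with 2 lines it reflects mainly the size of the difference between them. The distance from Rag1 was 0.104 for Limk1, an actin regulator (log2 change -0.99), 0.133 for Padi2, an arginine deiminase (-1.15), and 0.168 for Gfra1, a growth factor receptor (-1.06). For Vpreb3 the closest were Sec11c, of the signal peptidase (distance 0.00291, log2 change 0.22, adjusted p = 0.0670 in edgeR), and Wdyhv1 (0.0135, 0.22, adjusted p = 0.322).

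The 6 pathway lists that follow were chosen with earlier results of these data known. Their called shares are therefore descriptive and are no independent support. Among genes that help RAG cleave or that join the broken ends, 1 of 19 tested (5.26%, against 3.73% of all tested genes) passed the test. It was Lig4, the ligase that seals coding and signal joins, which rose from 44.7 and 47.0 CPM to 57.9 and 56.6 CPM (log2 change 0.32 ± 0.07, adjusted p = 0.0197 in edgeR). The median log2 change of the list was 0.09, and 5 genes (26.3%, against 16.9% of all tested genes) had an unadjusted p below 0.05. Polm, a polymerase of end joining (0.23, adjusted p = 0.158), Xrcc5, which encodes KU80 (0.22, adjusted p = 0.166), the histone variant gene H2afx (0.14, adjusted p = 0.229) and the damage kinase gene Atm (-0.16, adjusted p = 0.255) were among them. Prkdc, which encodes the DNA-dependent protein kinase, had a log2 change of 0.18 (adjusted p = 0.356). Lig4 lost its call in DESeq2 (adjusted p = 0.216). It also lost it when either resistant library was left out, where only the more variable sensitive pair gives a spread. With 1 library left out, its log2 change ran from 0.28 to 0.36. The list had 3 called genes without sensitive replicate 1 (Xrcc5 then at 0.28) and 3 without sensitive replicate 2 (Polm at 0.36 and Atm at -0.20). Polm was at 0.09 without sensitive replicate 1 and Atm at -0.08 without resistant replicate 1, neither called.

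Most transcription factors of the early B lineage and of Rag transcription did not pass the test. Of 24 tested, Id2 and Myb rose, Id3 fell, so that 12.5% were called against 3.73% of all tested genes, and the median log2 change was 0.002. An edgeR p under 0.05 before adjustment was found for 9 of them (37.5%, against 16.9%). Id2 and Id3 encode inhibitors of the E proteins, which activate Rag transcription and light-chain enhancers. Id3 went from 31.0 and 30.5 CPM to 21.7 and 25.7 CPM (log2 change -0.37 ± 0.10, adjusted p = 0.0485), and Id2, at a low level, from 0.848 and 1.36 to 2.29 and 3.54 CPM (1.44 ± 0.35, adjusted p = 0.0285). Myb, a factor of lymphoid progenitors, rose from 346 and 394 to 435 and 438 CPM (0.24 ± 0.06, adjusted p = 0.0464). The E-protein gene Tcf3 had 511 and 552 CPM against 472 and 465 CPM in resistant cells (-0.18, adjusted p = 0.0948), Spi1, which encodes PU.1, had a log2 change of -0.18 (adjusted p = 0.176) and Ets1 of 0.17 (adjusted p = 0.114). Foxo1, an activator of Rag transcription, stood at 59.9 and 61.9 CPM against 56.1 and 52.5 CPM (-0.16, adjusted p = 0.258, chosen after its values were seen).

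The calls of these 3 factors depended on the setting. DESeq2 called none of them (adjusted p = 0.327 for Id2, 0.390 for Id3 and 0.0851 for Myb), and 0 of the 24 genes in all. Id3 was not called with library size only (edgeR adjusted p = 0.0656) or with upper-quartile factors (0.0609). It was not called without resistant replicate 1, Id2 not without sensitive replicate 1 or resistant replicate 2, and Myb not without either resistant library. Without a resistant library only the more variable sensitive pair gives a spread. With 1 library left out, the log2 change of Id3 ran from -0.50 to -0.26 and that of Id2 from 1.08 to 1.78. That of Myb ran from 0.15 to 0.33. Without sensitive replicate 1 Myb kept its call at a log2 change of 0.15. Tcf3 (-0.24) and Spi1 (-0.24) were called lower without sensitive replicate 1, and Ets1 higher without either sensitive library, where only the resistant pair gives a spread. The list then held 7 and 5 called genes without sensitive replicate 1 and 2, and 1 gene without either resistant library.

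Genes of the pre-B-cell receptor and its signalling moved in both directions. Of 18 tested, 3 rose and 1 fell (22.2% called, against 3.73% of all tested genes), with a median log2 change of 0.02. An unadjusted p below 0.05 was found for 8 (44.4%, against 16.9%). The Src-family kinase gene Blk rose from 10.4 and 10.3 to 15.3 and 15.2 CPM (log2 change 0.56, adjusted p = 0.0159), the phosphatase gene Ptpn6 by 0.36 (adjusted p = 0.00484), and the cell-cycle inhibitor gene Cdkn1b from 67.7 and 76.5 to 88.9 and 98.6 CPM (0.38, adjusted p = 0.00737). Ccnd3, the D-type cyclin needed for pre-B-cell expansion, fell from 98.9 and 102 to 80.5 and 79.4 CPM (-0.33, adjusted p = 0.00621). The μ heavy-chain gene Ighm had a log2 change of 0.12 (adjusted p = 0.229) and Pik3ap1, an adaptor, of -0.21 (adjusted p = 0.191). The list had 8 called genes without sensitive replicate 1, and 1 without either resistant library. Blk and Ccnd3 lost their calls without resistant replicate 1 (adjusted p = 0.0521 and 0.0745) and without resistant replicate 2 (0.0689 and 0.128), Ptpn6 without resistant replicate 1 (0.0553) and Cdkn1b without resistant replicate 2 (0.159). DESeq2 did not call Blk (0.277). Pik3ap1 (-0.28) and Ighm (0.14) were called without sensitive replicate 2, while Pik3ap1 was at -0.12 and not called without sensitive replicate 1 or without resistant replicate 2.

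In interleukin-7 receptor signalling, which sustains progenitors and restrains recombination of light chains, 1 of 11 tested genes rose and 1 fell (18.2% called, against 3.73% of all tested genes), with a median log2 change of -0.03. An unadjusted p below 0.05 was found for 2 (18.2%, against 16.9%). Il7r, the receptor chain, fell from 117 and 126 to 90.1 and 96.9 CPM (log2 change -0.38 ± 0.07, adjusted p = 0.00271 in edgeR). It was not called without resistant replicate 1, where only the more variable sensitive pair gives a spread. With 1 library left out, its log2 change ran from -0.43 to -0.33. Bcl2, an inhibitor of apoptosis, rose by 2.59 on the log2 scale, from 18.0 and 18.3 to 105 and 113 CPM (adjusted p = 2.13e-12). The log2 changes of Jak3 (0.17), Stat5b (-0.07), Socs1 (-0.22) and Socs2 (0.04) did not pass, with adjusted p-values of 0.554, 0.640, 0.693 and 0.770. Single libraries moved these values. Without sensitive replicate 1 Jak3 was at 0.04, Socs1 at 0.23 and Socs2 at 0.01, and without sensitive replicate 2 Stat5b was at 0.01 and Socs1 at -0.51.

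Other genes of the pro-B and pre-B stages did not move one way. Of 11 tested, Cd93 and Flt3 rose and Spn fell (27.3% called, against 3.73% of all tested genes), with a median of -0.02. An unadjusted p below 0.05 was found for 3 (27.3%, against 16.9%). Cd93, a surface marker of early and immature B cells, rose from 43.5 and 43.7 to 60.5 and 62.0 CPM (log2 change 0.49, adjusted p = 5.88e-04 in edgeR). It was called in every setting with all libraries, and its log2 change ran from 0.47 to 0.50 when 1 was left out. Spn, which encodes CD43, a pro-B-cell marker, fell from 71.1 and 74.9 to 58.9 and 57.9 CPM (-0.32, adjusted p = 0.0140), and the progenitor receptor gene Flt3, at a low level, rose from 1.70 and 1.65 to 3.84 and 3.11 CPM (1.04, adjusted p = 0.0418). Spn and Flt3 lost their calls in DESeq2 (adjusted p = 0.109 and 0.504), where 1 gene of this list was called. Flt3 also lost its call in limma-voom (0.0545). Both lost them when either resistant library was left out, where only the more variable sensitive pair gives a spread. With 1 library left out, the log2 change of Spn ran from -0.36 to -0.29 and that of Flt3 from 0.89 to 1.19. Ly6d (0.52, adjusted p = 0.313), Rasgrp2 (-0.11, adjusted p = 0.481) and Cd24a (-0.07, adjusted p = 0.493) did not pass.

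Among mature B-cell genes 4 of 11 tested rose and 1 fell (45.5% called, against 3.73% of all tested genes), with a median log2 change of 0.33. At an unadjusted p below 0.05 were 8 (72.7%, against 16.9%). This list too was chosen with earlier results of these data known, so these shares are no independent result. Ms4a1, which encodes CD20, rose from 1.31 and 1.36 to 8.15 and 7.07 CPM (log2 change 2.50), and among the others were the invariant chain gene Cd74, which rose by 0.94, and the inhibitory receptor gene Cd22, which rose by 0.28 (adjusted p = 0.0129). Cd38 fell from 101 and 94.3 to 71.4 and 77.4 CPM (-0.40, adjusted p = 0.00263). The class II gene H2-Ab1 (0.44, adjusted p = 0.0588) was called with no filter (0.0408), with the replicate block (0.00646), without sensitive replicate 2 (2.37e-04) and without resistant replicate 2 (0.0131). Cd22 and Cd38 were not called without resistant replicate 1, and Cd22 not without resistant replicate 2. In these fits only the more variable sensitive pair gives a spread. With 1 library left out, the log2 change of Cd22 ran from 0.24 to 0.32 and that of Cd38 from -0.46 to -0.34.

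**Figure D5:**
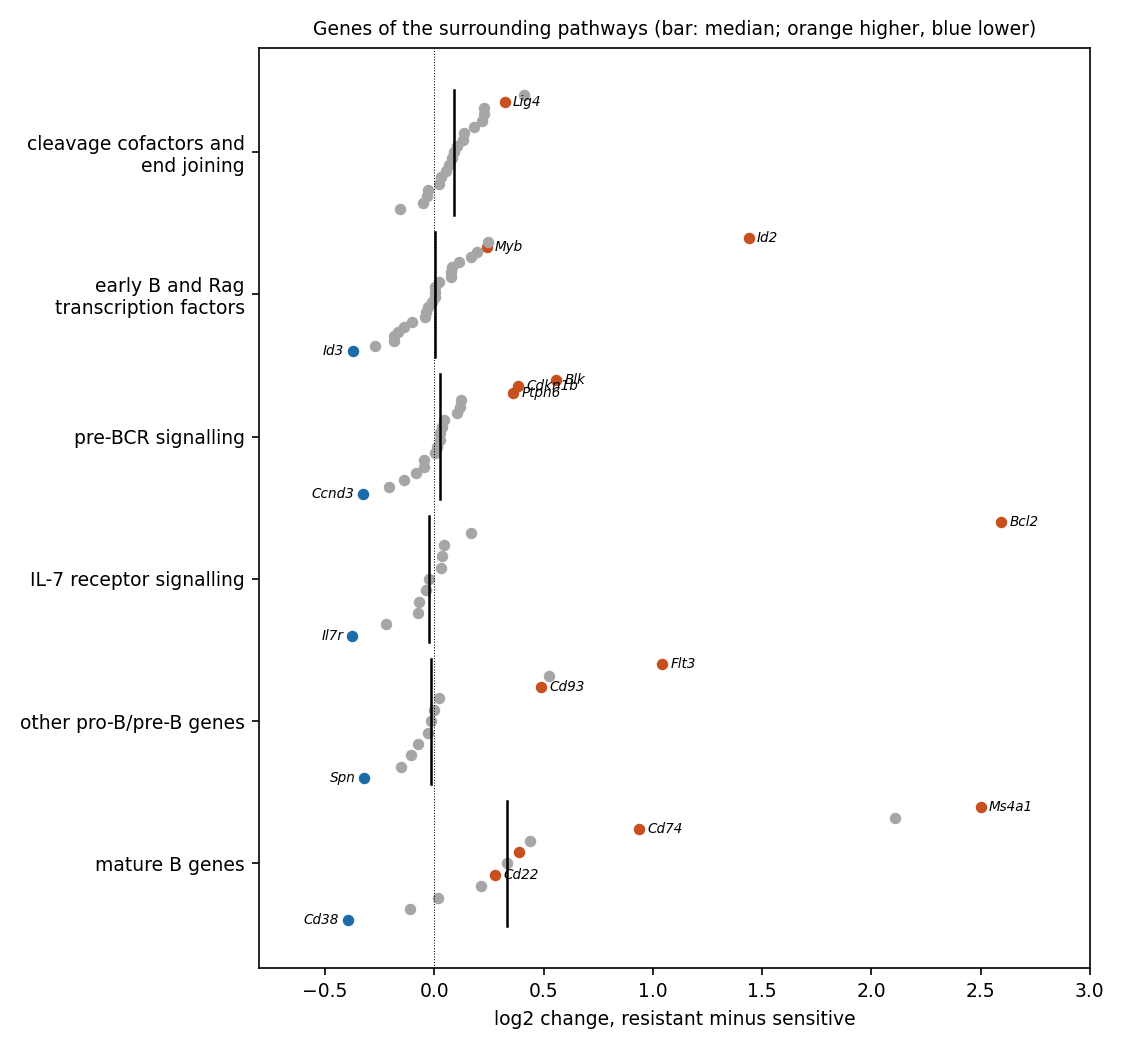
The log2 change (resistant minus sensitive) of tested genes in 6 pathway lists, 1 point a gene, with the median as a bar and the names of called genes except 1 in the mature B-cell list (orange higher, blue lower). Medians lie between -0.03 and 0.09 in 5 lists and at 0.33 in the mature B-cell genes.

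The B-lineage identity of both lines was checked by markers. All 9 B-lineage markers were tested and expressed, with summed levels of 2325 to 2536 CPM, and Cd79a, a signalling chain of the B-cell receptor, stood at 425 to 453 CPM. Of the 9, Cd22 was called higher (11.1%, against 3.73% of all tested genes). An unadjusted edgeR p below 0.05 was found for 4 (44.4%, against 16.9%), and the median log2 change was 0.10. Of 10 T-cell and thymocyte markers 5 had a row, with summed levels of 15.3 to 16.9 CPM, nearly all from Cd2, which B cells also express, and Cd3d was at 0 in 1 library of each line. Summed levels of myeloid markers were 1.55 to 2.20 CPM and of erythroid markers 0.505 to 0.680 CPM. Plasma-cell markers, of which 3 of 4 had a row, had summed levels of 45.6 and 41.7 CPM (sensitive) against 34.7 and 39.1 CPM (resistant). Among them Sdc1, which encodes a surface proteoglycan of plasma cells and B-cell precursors, fell from 19.6 and 17.9 to 10.8 and 12.3 CPM (log2 change -0.70, adjusted p = 0.00245 in edgeR). Sdc1 was called under every alternative with all libraries (singled out after its values were seen). Its log2 change ran from -0.80 to -0.61 when 1 library was left out. Xbp1 had a log2 change of 0.01 (adjusted p = 0.978 in edgeR), and Prdm1 was at 0 in both sensitive libraries and at 0.183 and 0.168 CPM in the resistant ones. These Prdm1 values lie below the CPM of 3 counts in those libraries (0.275 and 0.254), and Prdm1 was not tested. Of 5 stroma markers 1 had a row, Vim, which lymphoid cells also express, at 337 and 405 against 333 and 304 CPM (-0.22, adjusted p = 0.138). Vim was called without sensitive replicate 1 (-0.35) and was at -0.08 without sensitive replicate 2. The part of these markers in the changes of the recombinase genes was not tested. In bulk RNA fewer cells with a transcript and less transcript per cell cannot be told apart. Total counts were 10346007 to 13048103 per library.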

How the data were processed

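RNA of 4 libraries was sequenced, 2 per line, with depths given in the report. The authors deposited a table of raw counts, one row per Ensembl gene, in which no gene has under 4 counts summed over the libraries. Per the submitters' processing notes, the tools were FastQC, cutadapt 1.7, TopHat, Bowtie2, HTSeq and limma, on GRCm38 (mm10). Their strand setting is not given in the sources used here. Positions, symbols and exon lengths came from GENCODE M21 on GRCm38, which held 16393 of the 16591 identifiers.

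The main test was edgeR 4.0.16 (R 4.3.3), its quasi-likelihood fit with TMM factors and filterByExpr (minimum count 10, minimum total 15). P-values were adjusted over the 11945 genes left by Benjamini-Hochberg, and calls made at 0.05. CPM uses the library sizes of that fit times the TMM factors. Alternatives were DESeq2 1.42.0, limma-voom (limma 3.58.1), other scalings, no filter, the replicate number as a block and leaving out each library. The fit was also tested on counts simulated at the levels of these libraries over 11818 genes. It recovered 25 of 50 genes changed 1.25-fold, 41 changed 1.5-fold, 45 changed 2-fold and all 50 changed 4-fold, with 6 false calls. The simulation gave every gene in both lines the same dispersion and changed only genes with a mean above 2 CPM. These numbers therefore need not hold for the real libraries.

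The members and 6 pathway lists (112 symbols) were chosen with earlier results of these data known. Named genes are the members, up to 6 genes per list by smallest p, genes within 200 kb of a member and the 3 nearest profiles of each called member. Some genes that this rule or the marker lists name enter the counts, sums and medians but are not reported here. Shares have exact 95% intervals, and floors are 3 counts, both covering counting error only.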

Additional observations from a re-analysis of the deposited data

How the results depend on the processing

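Rag1 was called lower under every alternative with all libraries, with log2 changes from -1.09 to -1.08. With 1 library left out its log2 change ran from -1.11 to -1.07. DESeq2 called 208 genes in all (122 higher, 86 lower) against 445 in edgeR, with 0 among the end-joining genes, 0 among the early B and Rag transcription factors and 1 among the other pro-B and pre-B genes. Vpreb3 was at 0.22 in DESeq2 and not called. Rag2 was called with no filter (-0.37) and with the replicate block (-0.38). The labels give both lines replicates 1 and 2, but with 2 pairs the deviations of same-numbered libraries correlated at -0.02, so the numbers are not taken to pair the libraries, and with the block 595 genes were called.

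When 1 library was left out, the number of called genes ran from 270 (without resistant replicate 2; 159 higher, 111 lower) to 1381 (without sensitive replicate 1; 663 higher, 718 lower), where the lone library is assumed to vary like the other line's pair. Over the same fits the called genes ran from 0 to 3 for end joining, 1 to 7 for transcription factors, 1 to 8 for pre-B-cell receptor signalling, 1 to 2 for interleukin-7 signalling, 1 to 3 for other pro-B and pre-B genes and 3 to 6 for mature B-cell genes. The assumption that a lone library varies like the other line's pair was not met. Replicate counts differed more in the sensitive pair than in the resistant pair (chi-square per degree of freedom 4.05 against 1.79). Calls from these fits are therefore not comparable with those from all libraries. The log2 change of Rag2 ran from -0.48 to -0.27 and that of Vpreb3 from 0.17 to 0.29. With the longest transcript as the length, Vpreb3 stood at 292 and 342 CPM per kilobase, and Vpreb1 at 0.577 and 0.677 against 0.372 and 0.437. Of 51 named genes and plasma-cell or stroma markers not called with all libraries, 17 changed sign when a library was left out, and another 20 moved by over 1.5 times. The sum of Vpreb1 and Vpreb2 was not run because Vpreb2 has no row here. Depth limits Vpreb1 and Igll1, with 22 and 6 counts in all. The other settings with all libraries were library size only, upper-quartile and median-of-ratios factors and limma-voom, and over all settings with all libraries the called genes ran from 208 to 595.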
